A study of Mus musculus with 2 samples.

Results

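Pericentral hepatocytes, the liver cells that surround the central vein, were chosen by a rule on unique molecular identifier (UMI) counts from 2 single-cell libraries, and 844 cells met it, 655 in WT and 189 in N-LKO. A member had at least 1000 UMIs and 400 genes, at most 30% mitochondrial UMIs, Malat1 under 1% of UMIs, no UMI of 7 genes of other cell types (Clec4f, Cd5l, Stab2, Ptprb, Skap1, Dcn and Ebf1) and fewer than 4 UMIs of Saa1, Saa2, Lcn2 and Spp1. It also had at least 3 UMIs of 5 pericentral markers (Cyp2e1, Cyp1a2, Oat, Slc1a2 and Gulo), and that sum exceeded 2 times the sum of the periportal genes Cyp2f2, Hal, Sds, Gls2 and Hsd17b13. The files list 190318 droplets in all, 100171 in WT and 90147 in N-LKO. Of these, 5352 and 2433 passed every limit that precedes the comparison of the marker sums. Both marker sums chose the members, so the levels of the rule genes are a description and support no finding.

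WT was liver whose genotype label reads CTRL, and N-LKO was liver with tumor in which floxed Nus1, the gene of NgBR, was deleted by a Cre recombinase driven from the albumin promoter, which is active in hepatocytes. The study's methods give male C57BL6 mice. Both groups received a fat-rich diet for 16 weeks, called HFD in the titles and WD in the treatment labels. For WT, isolated hepatocytes and nonparenchymal cells were pooled in equal parts before loading, and for N-LKO a smaller portion of tumor cells was added, so shares of cell types follow the mixing as well as the tissue. Each group is 1 library with no replicate, and no source used here gives the number of animals behind it. No value below has a test across samples, no p-value is given, and all intervals are at 95% and cover counting error only. A member may have come from the tumor portion of N-LKO, which the labels do not separate from the liver portion.

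Blood enters the liver lobule at the portal triad and leaves at the central vein, and hepatocytes differ in gene expression along this path. Wnt ligands from the central vein endothelium act through beta-catenin and TCF factors in the neighbouring hepatocytes, which make glutamine from ammonia, take up glutamate, oxidize drugs and ethanol through cytochromes P450, and start bile acid synthesis. Periportal hepatocytes run the urea cycle and gluconeogenesis. NgBR is a subunit of cis-prenyltransferase, whose catalytic subunit is DHDDS, and the enzyme makes the lipid carrier dolichol on which N-glycans are built.

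The promoters of 3 pericentral genes held the TCF core motif ATCAAAG and are shown because Wnt signaling sets this zone, with that of Glul, which held no match, beside them. Each line gives the 250 bases before the start of the gene, from RefSeq on GRCm38.p6, 5′ to 3′ on the strand of the gene, with the motif in capitals on either strand.
Slc1a2: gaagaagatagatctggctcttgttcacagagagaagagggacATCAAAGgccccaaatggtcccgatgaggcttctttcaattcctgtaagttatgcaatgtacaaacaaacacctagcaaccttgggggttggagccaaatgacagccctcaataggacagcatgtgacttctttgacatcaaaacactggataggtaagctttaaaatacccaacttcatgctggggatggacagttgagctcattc
Cyp2c29: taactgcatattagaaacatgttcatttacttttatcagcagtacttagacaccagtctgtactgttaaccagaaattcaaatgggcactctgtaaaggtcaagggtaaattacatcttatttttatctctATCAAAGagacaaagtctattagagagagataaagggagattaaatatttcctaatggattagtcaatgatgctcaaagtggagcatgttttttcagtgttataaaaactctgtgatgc
Lect2: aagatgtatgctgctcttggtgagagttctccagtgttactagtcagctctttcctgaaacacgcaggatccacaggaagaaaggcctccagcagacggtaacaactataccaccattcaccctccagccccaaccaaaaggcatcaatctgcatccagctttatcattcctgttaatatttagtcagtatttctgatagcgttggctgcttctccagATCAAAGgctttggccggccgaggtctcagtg
Glul: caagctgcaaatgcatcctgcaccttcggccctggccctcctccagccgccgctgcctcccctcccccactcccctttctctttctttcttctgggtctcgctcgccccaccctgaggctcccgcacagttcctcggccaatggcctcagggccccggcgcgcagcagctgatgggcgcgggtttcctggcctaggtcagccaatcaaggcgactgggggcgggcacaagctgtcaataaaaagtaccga
These are chr2:102706188-102706437 on the plus strand for Slc1a2, chr19:39286835-39287084 on the plus strand for Cyp2c29, chr13:56548539-56548788 on the minus strand for Lect2 and chr1:153899679-153899928 on the plus strand for Glul. The motif began 207 bases before the start in Slc1a2, 119 in Cyp2c29 and 32 in Lect2. Of the promoters in the table, 4 of the 5 markers had an entry and 1 held the motif, and 27 of 35 other pericentral genes had one and 2 held it, or 7.41%. Over all 32851 promoters of this length, 3.21% held it. A match is a description of the letters and not a binding site.

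The members carried 977663 UMIs in WT and 368665 in N-LKO, with a median of 1365 and 1827 UMIs and 699 and 876 genes per cell. Their median mitochondrial share was 22.6% in WT and 17.3% in N-LKO. Levels are given as CPM, the UMIs of a gene in 1000000 UMIs summed over the members of a library, and 3 UMIs correspond to 3.07 CPM in WT against 8.14 CPM in N-LKO. The files share 2499 droplet sequences between the libraries, but no member of one library shared its sequence with a member of the other. The limit on 7 genes did not remove every droplet with other cells' RNA. Of the members, 72 in WT (11%) and 47 in N-LKO (24.9%) carried 6 or more UMIs of 8 marker lists of other liver cell types, and one N-LKO member carried 122. All calls were therefore also made without these cells.

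Cyp2e1, the ethanol-oxidizing P450 that marks the zone, made up 53.1% of the marker UMIs in WT and 60.9% in N-LKO. It stood at 3032 CPM in WT against 2056 CPM in N-LKO. Oat, ornithine aminotransferase, stood at 1579 CPM in WT against 488 CPM in N-LKO, and Slc1a2, a glutamate transporter, at 407 and 165 CPM. Cyp1a2, which oxidizes caffeine and aromatic amines, stood at 349 and 271 CPM, and Gulo, which completes the synthesis of vitamin C, at 340 and 393 CPM. Thus 4 of the 5 rule genes were lower in N-LKO and Gulo was slightly higher, and the interval of its log2 ratio, from -0.08 to 0.50, held 0. All 5 markers were present together in 55 WT members (8.4%) and 6 N-LKO members (3.17%), and Cyp2e1 was the only one of the 5 in 12.8% of WT and 21.7% of N-LKO members. Cells just inside the limit, with 3 marker UMIs, numbered 161 in WT and 52 in N-LKO and held Glul at 598 and 564 CPM. Cells just outside it, with 2 marker UMIs exceeding 2 times the periportal sum, numbered 150 and 88 and held Glul at 306 and 174 CPM.

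**Figure D1:**
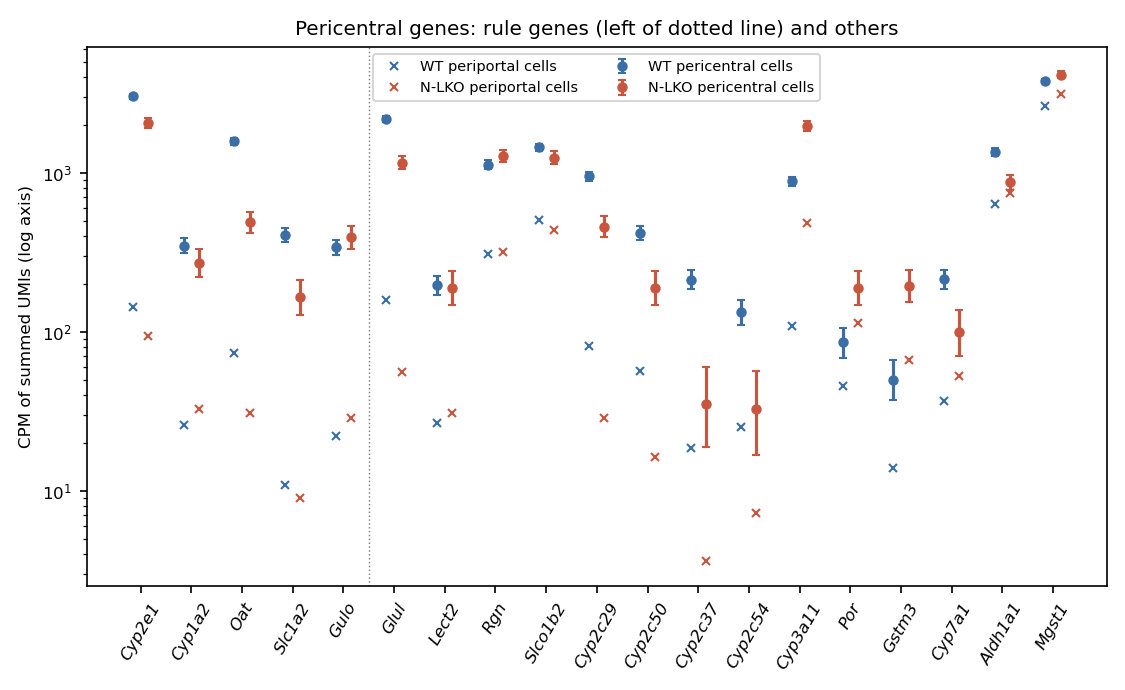
Levels of the 5 rule genes (left of the dotted line) and 14 other pericentral genes, as CPM of summed UMIs on a log axis; circles are pericentral members with exact 95% Poisson intervals and crosses are periportal cells of the same library, WT in blue and N-LKO in red. Every gene shown was higher in pericentral than in periportal cells of both libraries, Oat, Slc1a2, Glul and the Cyp2c genes were lower in N-LKO members than in WT members, and Cyp3a11, Por and Gstm3 were higher.

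Members made up 12.2% of the 5352 WT cells that passed the other limits (11.4 to 13.1, Clopper-Pearson) and 7.77% of the 2433 N-LKO cells (6.74 to 8.9). The difference, N-LKO minus WT, was -4.47 percentage points (Newcombe interval -5.82 to -3.05), and it did not keep its direction. With a minimum of 2000 UMIs the shares were 9.16% and 18.9%, with a mitochondrial limit of 10% they were 5.19% and 6.94%, and without cells of 6 or more other-cell UMIs they were 13.4% and 14.7%. Of the N-LKO cells that were neither pericentral nor periportal, 69.1% carried 6 or more other-cell UMIs, against 26.4% in WT, and their median Alb share was 0.459% against 1.43%, so the denominators do not hold the same kinds of cell. Periportal cells, found by the same rule with the 2 sums exchanged, numbered 1728 in WT and 272 in N-LKO. Pericentral cells were 27.5% of the zoned cells in WT (25.7 to 29.3) and 41% in N-LKO (36.5 to 45.6).

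The genes of the zone that the rule did not use separated the members from the periportal cells of the same library. Of 35 such genes 34 were measured, meaning at least 5 CPM in pericentral or periportal cells of each library. All 34 had a log2 ratio of pericentral over periportal above 0 in WT and 33 did in N-LKO, with a median of 1.58 and 1.48. A gene was called where the log2 ratio was at least 1 in size and its exact interval lay on 1 side of 0, and 26 of the 34 were called higher in WT and 17 in N-LKO. Over all 9419 genes measured, 4.47% were called higher and 0.807% lower in WT, 2.61% and 1.6% in N-LKO, and 0.966% and 0.159% in both libraries, and the median ratio was 0.12 in WT and 0.08 in N-LKO. The 30 periportal genes outside the rule lay on the other side, with medians of -0.56 and -0.99. Of these, 2 had a ratio above 0 in WT and 5 in N-LKO, and 4 were called lower in WT and 13 in N-LKO.

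Glul, glutamine synthetase, had the highest zonal ratio of the 10 steepest genes in N-LKO. It stood at 2184 CPM in pericentral and 158 CPM in periportal WT cells, a log2 ratio of 3.79 (3.65 to 3.93). In N-LKO it stood at 1161 and 56 CPM, a log2 ratio of 4.35 (3.85 to 4.95). Its level was thus lower in both zones of N-LKO while its zonal ratio was at least as steep, with a difference of 0.56 (0.02 to 1.10). Cyp2c29, a drug-metabolizing P450, had ratios of 3.54 and 3.95, and Lgr5, the receptor that strengthens Wnt signals in the cells beside the central vein, had 3.13 and 4.21, on 18 UMIs against 1 in N-LKO (2.09 to 10.14). Lect2, a secreted Wnt target of the liver, had 2.88 in WT and 2.60 in N-LKO, and the difference of -0.28 (-1.12 to 0.56) was within counting error. Slco1b2, a bile acid and drug uptake carrier, had 1.52 in both libraries. The other genes among the 10 steepest were Cyp2c38, Cyp2c37, Cyp2c50, Cyp2c67, Rdh9, a retinol dehydrogenase, Gstm2, a glutathione transferase, and the major urinary protein Mup17. All 10 kept a log2 ratio of at least 2.68 in both libraries. At the other end stood Slc3a1, an amino acid transporter subunit (-1.81 and -2.82), Serpina1e (-1.41 and -1.90), Aldh1b1 (-1.22 and -2.90), Mup21 (-1.17 and -1.97), Hamp (-1.16 and -2.09), Hpx, the heme carrier hemopexin (-1.09 in both), and Ctnnbip1, Ncam2, Etnppl and Utp20. The Cyp2c and Mup genes are near-identical copies, and counting may have split their reads.

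Among the Wnt pathway genes some targets were zoned by this measure. Axin2, a feedback inhibitor, had 5 UMIs in pericentral members of each library, against 3 UMIs in WT and 0 in N-LKO periportal cells. Tbx3, a transcription factor, had ratios of 2.70 in WT (1.84 to 3.65) and 1.88 in N-LKO (0.39 to 3.81), and Rnf43, which removes Wnt receptors, had 0.96 and 1.37. Ctnnb1, beta-catenin itself, had -0.07 (-0.40 to 0.23) and 0.29 (-0.25 to 0.82), and Apc, a part of its destruction complex, had -0.14 and -0.54, with both intervals holding 0. Of the 22 genes of this list measured, 4 were called higher in each library and none lower.

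**Figure D2:**
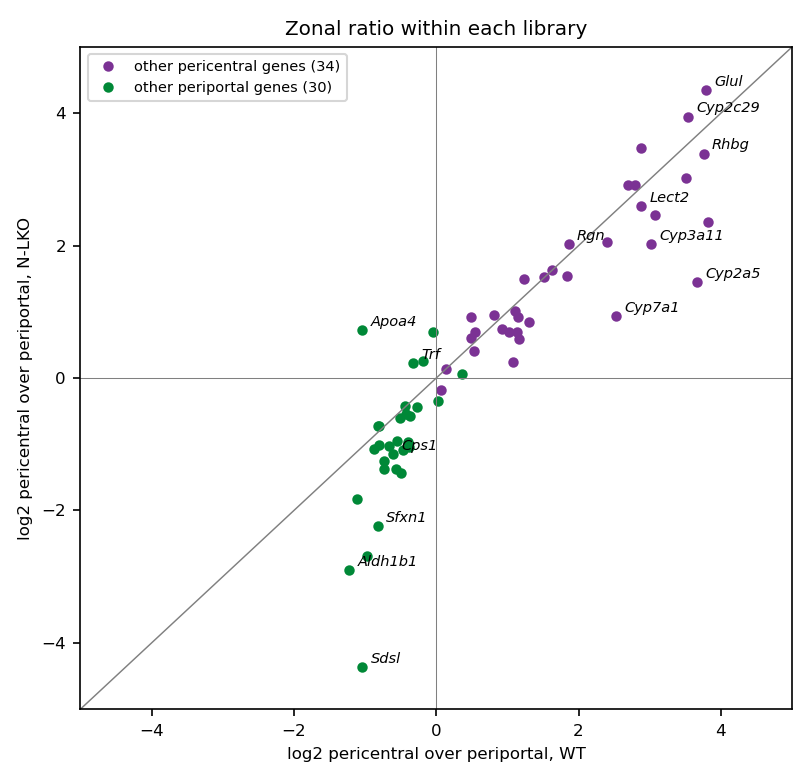
Log2 ratio of pericentral over periportal CPM in WT (x axis) and N-LKO (y axis) for 34 other pericentral genes (purple) and 30 other periportal genes (green); the diagonal marks equal ratios. The pericentral genes lie above 0 in both libraries except Akr1d1 in N-LKO, and many periportal genes lie below the diagonal.

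The interval of the difference in zonal ratio, N-LKO minus WT, lay above 0 for 235 and under 0 for 369 of the 9419 genes, and the genes below are examples. Cyp3a11, the major drug-oxidizing P450 of mouse liver, had a ratio of 3.02 in WT and 2.02 in N-LKO, and the interval of the difference was -1.27 to -0.73. It stood at 109 CPM in WT against 486 CPM in N-LKO periportal cells. Cyp2a5, coumarin hydroxylase, had 3.66 and 1.45 (difference -2.21, -3.11 to -1.31). Cyp7a1, the rate-limiting enzyme of bile acid synthesis, had 2.53 and 0.93 (difference -1.60, -2.37 to -0.83), and Aldh1a1, which makes retinoic acid, had 1.08 and 0.24. The ratios of several periportal genes were lower in N-LKO too, which for them is a steeper gradient. Cps1, the first enzyme of the urea cycle, had -0.61 in WT and -1.15 in N-LKO (difference -0.54, -0.72 to -0.36), Ass1 had -0.73 and -1.38, and Arg1 had -0.49 and -1.43. Hamp, which encodes the iron hormone hepcidin, had -1.16 and -2.09. WT members held more RNA of the periportal genes used by the rule than N-LKO members, 605 against 195 CPM, and the part of this in the differences was not tested.

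The members were not uniform. In WT the 250 members with 3 or 4 marker UMIs held Glul at 636 CPM (553 to 728), the 215 with 5 to 8 at 856 CPM, and the 190 with 9 or more at 5183 CPM (4935 to 5440). In N-LKO the 81, 71 and 37 members of the same bins held Glul at 442, 730 and 2735 CPM (2418 to 3083 in the last). Glul was thus concentrated in the cells with the most marker UMIs in both libraries. Members with 10 or more Glul UMIs were 70 in WT (10.7%) and 18 in N-LKO (9.52%), and they held 57.7% and 69.2% of the Glul UMIs of all members. Cyp3a11 went over the bins from 403 to 1566 CPM in WT and from 1417 to 2624 CPM in N-LKO, while Cps1 was lowest in the last bin of each library, at 1124 and 559 CPM. Bins by marker UMIs follow depth too, since the median UMIs per cell went from 1260 to 1592 in WT and from 1512 to 2462 in N-LKO.

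**Figure D3:**
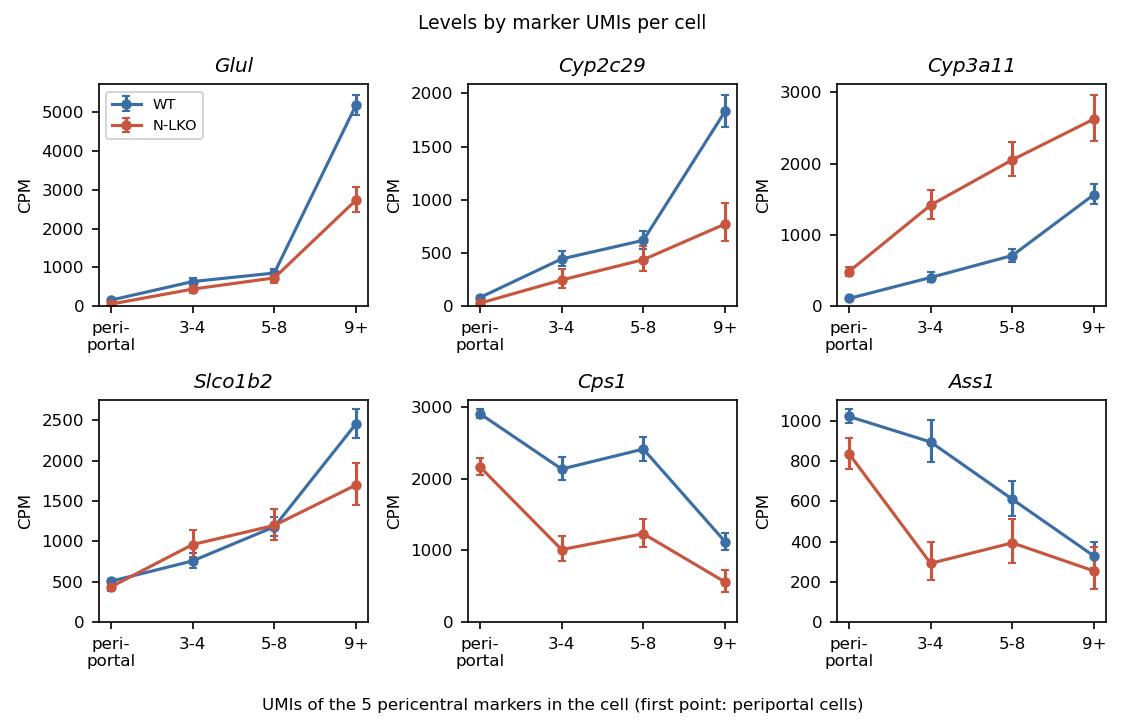
CPM of 6 genes in periportal cells and in pericentral members with 3 to 4, 5 to 8 and 9 or more UMIs of the 5 markers (x axis), WT in blue and N-LKO in red, with exact 95% Poisson intervals. Glul, Cyp2c29, Cyp3a11 and Slco1b2 were highest and Cps1 and Ass1 lowest in the last bin of both libraries.

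After each cell was thinned to 1000 UMIs, a Glul UMI was found in 53.6% of WT members (49.7 to 57.5) and 33.3% of N-LKO members (26.7 to 40.5), against 61.1% and 40.7% before thinning. Endothelial cells, called by at least 3 UMIs of Stab2 and Ptprb, held one in 25.4% and 16.2% of cells, at median depths of 1392 and 1506 UMIs against 1365 and 1827 in the members, and periportal cells in 15.2% and 4.78%. Endothelial cells can make some Glul of their own. Slc1a2 was present in 29.3% of WT members and 11.6% of N-LKO members against 2.57% and 2.05% of endothelial cells, and Cyp2c29 in 49% and 28% against 7.91% and 3.72%. Cyp3a11 was present in 46.3% of WT members and 65.6% of N-LKO members against 9.82% and 20.3% of endothelial cells. Each of these shares lay above the endothelial one in its library.

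Nus1, the deleted gene, had 69 UMIs in WT members (70.6 CPM, 54.9 to 89.3) and 20 in N-LKO members (54.2 CPM, 33.1 to 83.8), a log2 ratio of -0.35 (-1.18 to 0.36). The assay reads the 3′ end of a transcript and the floxed exon is the first, so this level checks neither the deletion nor the labels. Thinned, it was present in 7.63% of WT members and 3.17% of N-LKO members, at or below its share of 8.07% and 9.7% in endothelial cells, which carry an intact gene. Dhdds, its catalytic partner, had 16 and 7 UMIs and a ratio of 0.27 (-1.31 to 1.58). Of 34 genes of dolichol synthesis and N-glycosylation measured, Nus1 included, 1 was called higher and 1 lower, with a median of -0.03. Over all genes measured in the members, 5.68% were called higher and 1.9% lower, with a median of 0.26. Ostc, an oligosaccharyltransferase subunit, was called higher with a ratio of 1.11 (0.49 to 1.71), and Alg11, a mannosyltransferase, was called lower on 20 UMIs in WT and 1 in N-LKO (-8.29 to -0.27).

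Of 10862 genes measured at 5 CPM or more in the members of at least 1 library, 617 (5.68%) were called higher and 206 (1.9%) lower in N-LKO. Of the higher calls, 377 were seen in 10 or more N-LKO members and 173 rested on 3 or fewer WT UMIs. All 206 lower calls were seen in 10 or more WT members, and 69 rested on 3 or fewer N-LKO UMIs. WT had more members and more UMIs, so these counts do not rank the support of higher and lower calls. The median log2 ratio of all measured genes was 0.26, and ratios below are given without centring. Centred on that median, 315 genes were called higher and 445 lower, so the share of calls that were higher went from 75% to 41.4% with this choice. Without members of 6 or more other-cell UMIs, 450 and 182 genes were called, of which 328 and 129 were called with all members too. Droplets under 500 UMIs, which hold free RNA and broken cells, differed between the libraries in the same direction by at least 2 times for 50.7% of the genes called higher and 52.4% of those called lower. Over all measured genes, 18% and 16.2% differed in that way, higher and lower. The part of free RNA in these calls was not tested, and the values of such droplets are given where they bear on a gene. Periportal values are given for some genes only, so a change below is not shown to be particular to the members. A gene low in 1 library can pass the CPM filter through the other alone, so the counts and medians of lists are descriptions.

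The glutamine and ammonia genes stood lower as a group without passing the call. All 9 that were measured outside the rule had a log2 ratio under 0, with a median of -0.78 beside 0.26 for all genes, and none was called. Glul, at 2184 and 1161 CPM, had a ratio of -0.91 (-1.06 to -0.76), just short of the call, and passed it when the members with many other-cell UMIs were left out (-1.12). Slc38a4, an amino acid transporter, had -0.88 (-1.17 to -0.61), at 640 and 347 CPM, and Slc7a2, the arginine transporter, had -0.78 (-1.09 to -0.49). Glud1, glutamate dehydrogenase, had -0.32, Slc38a2 -0.52 and Slc38a3 -0.07. Rhbg, an ammonia channel, had 18 and 3 UMIs, and Slc1a4 had 16 and 5. Aldh18a1 and Pycr1 were not measured, with at most 1 UMI in a library. Centred, 3 of the 9 were called lower.

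Cytochromes P450 of the pericentral zone did not move together. Of 50 P450 and reductase genes measured outside the rule, 11 were called lower and 5 higher, beside 1.9% and 5.68% of all genes. Their median was -0.15. Centred, 15 were called lower and 3 higher. Cyp2c37 was called lower at 213 CPM in WT against 35.3 CPM in N-LKO (-2.54, -3.53 to -1.79), and was found in 151 WT and 8 N-LKO members. Cyp2c54 (-1.98, -3.02 to -1.18), Cyp2c50 (-1.13, -1.53 to -0.77) and Cyp2c29 (-1.05, -1.30 to -0.82) were called lower too, the last 2 not without members of many other-cell UMIs (both -0.92), while their neighbour Cyp2c38 had -0.10 (-0.63 to 0.38). Cyp2u1, a fatty acid hydroxylase, had 62 UMIs in WT and 2 in N-LKO (-3.24, -6.62 to -1.63). Cyp3a11 was called higher, at 884 CPM in WT against 1975 CPM in N-LKO (1.16, 1.02 to 1.30), as was Por (1.15, 0.67 to 1.62), the reductase that supplies electrons to the P450s. Neither Cyp3a11 nor Por was called when ratios were centred, and the same held for Krt18, Ostc and Cebpb. Cyp2b9 had 0 UMIs in WT and 8 in N-LKO, 7.07-fold higher against a floor of 3 UMIs in WT. This fold leaves out counting error in N-LKO and is no bound. Droplets under 500 UMIs held Cyp3a11 at 235 CPM in WT against 550 CPM in N-LKO, well below the members in both.

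The remaining pericentral genes were divided as well. Of 34 outside the rule, 6 were called lower and 3 higher, beside 1.9% and 5.68% of all genes. Their median was -0.15. Without members of many other-cell UMIs 3 were called lower and 3 higher, and centred 9 and 1. Besides the Cyp2c genes, Cyp7a1 was called lower (-1.07, -1.64 to -0.58), as was Akr1d1, which reduces bile acid precursors (-1.01, -1.71 to -0.41), but neither was without members of many other-cell UMIs (-0.78 and -0.97), and Akr1d1 lost its call in 12 of 22 alternatives. Gstm3, a glutathione transferase, was called higher at 50.1 CPM in WT against 195 CPM in N-LKO (1.96, 1.42 to 2.52). Aldh1a1 stood at 1350 and 873 CPM (-0.63, -0.81 to -0.45) and Ces1d, a carboxylesterase, at 203 and 119 CPM (-0.75, -1.27 to -0.29). Cpox, of heme synthesis, had -0.58 and Gsta3, a glutathione transferase, -0.35. Blvrb, which reduces biliverdin, had 0.61 (0.16 to 1.03) and Cyb5a, cytochrome b5, 0.43 (0.28 to 0.57). Lect2 stood at 196 and 190 CPM (-0.04, -0.46 to 0.35). Nr1i3, the constitutive androstane receptor, had 0.00 on 46 and 17 UMIs, and Ahr, the receptor that induces Cyp1a2, had 0.52 (-0.19 to 1.19). Cyp1a1, another gene induced by Ahr, had no UMI in either library. The intervals of Mgst1, Rgn and Slco1b2, at over 1000 CPM in both libraries, lay within 0.4 of 0 on the log2 scale.

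Periportal genes stood lower in the N-LKO members. Of 30 outside the rule, 7 were called lower and 2 higher, beside 1.9% and 5.68% of all genes. Their median was -0.74, and this list was limited by the rule, which capped the periportal sum of a member. Etnppl, an ammonia-forming lyase, stood at 129 CPM in WT against 16.3 CPM in N-LKO (-2.88, -4.46 to -1.82), and Tat, tyrosine aminotransferase, at 623 and 217 CPM. Arg1, arginase, was called lower (-1.18, -1.49 to -0.90), and Cps1 (-0.97, -1.13 to -0.80) and Ass1 (-0.94, -1.24 to -0.66) fell just short of the call. Ccnd1, cyclin D1, was called higher at 22.5 and 78.7 CPM.

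Bile acid genes and conjugating enzymes held more lower than higher calls. Of 30 genes of bile acid synthesis and transport, 7 were called lower and 1 higher, beside 1.9% and 5.68% of all genes. Their median was -0.37, and without members of many other-cell UMIs 4 were called lower and 0 higher. Slco1a1, an organic anion uptake carrier, was called lower at 283 CPM in WT against 46.1 CPM in N-LKO (-2.58, -3.42 to -1.91), and Slc10a1, the sodium-dependent bile acid uptake carrier, at 328 and 111 CPM (-1.55, -2.07 to -1.09). Cyp8b1, which directs synthesis to cholic acid, was called lower too (-1.50, -2.22 to -0.90). Of 47 conjugating enzymes, 7 were called lower and 3 higher, and without such members 3 and 3. The share of them called higher lay near that of all genes. Sult2a8, a bile acid sulfotransferase, stood at 818 CPM in WT against 184 CPM in N-LKO (-2.14, -2.53 to -1.79), and droplets under 500 UMIs held it at 746 and 45.1 CPM.

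Genes that respond to growth hormone or differ between the sexes had the lowest median of the lists drawn from hepatocyte functions. Of 35 measured, 17 were called lower and 1 higher, beside 1.9% and 5.68% of all genes. Their median was -1.03. Some, such as Mup1, passed the CPM filter only through WT, where they are high. Neither these counts nor the median, in any setting, is therefore support for a change of the list. Mup1, a major urinary protein, had 96 UMIs in 87 WT members and none in N-LKO, 12.1-fold lower against a floor of 3 UMIs in N-LKO. This fold leaves out counting error in WT and is no bound. Mup9 had 304 UMIs in WT and 3 in N-LKO (-5.04, -7.54 to -3.70), Mup7 had 350 and 10 (-3.65, -4.80 to -2.83), and Mup17, one of the most pericentral genes, stood at 1039 and 279 CPM (-1.89, -2.20 to -1.60). Mup20 did not move with them and stood at 19769 CPM in WT against 29794 CPM in N-LKO (0.59, 0.56 to 0.63). Mup17 was lower in N-LKO periportal cells too, at 157 CPM in WT against 32.5 CPM. Hsd3b5, a male-biased steroid dehydrogenase, had 39 UMIs and 1 UMI, and Cyp4a12a, a male-biased fatty acid hydroxylase, stood at 214 and 43.4 CPM (-2.26, -3.13 to -1.57). Ghr, the growth hormone receptor, had -0.81 at 1424 and 808 CPM, and Stat5b, its signal transducer, had 0.00. Droplets under 500 UMIs held Mup7 at 374 CPM in WT against 11.5 CPM in N-LKO, close to the members, so these reads cannot be assigned to the members alone. The Mup genes are near-identical copies and their single values are uncertain. The median of the list was under 0 in all 22 alternatives.

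**Figure D4:**
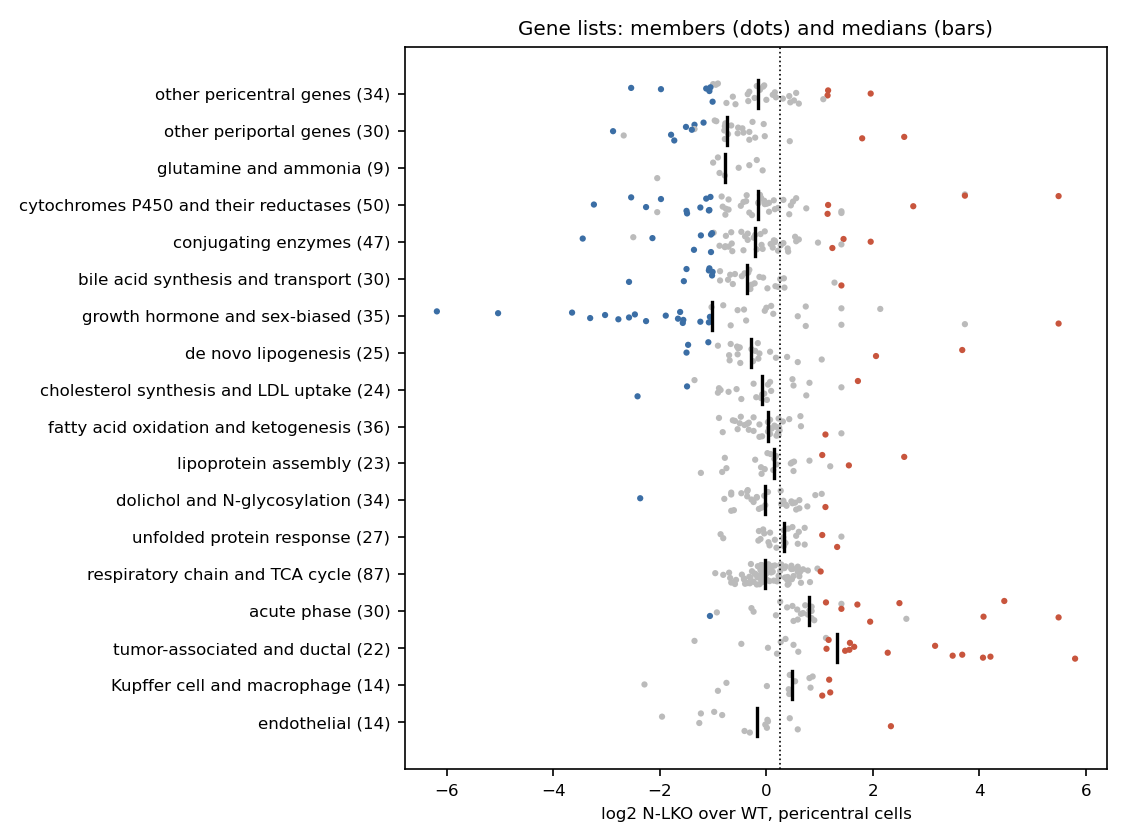
Log2 ratio of N-LKO over WT in pericentral members for 18 gene lists; each dot is a measured gene outside the rule, red where called higher, blue where called lower and grey otherwise, with the number measured in parentheses, black bars at list medians and a dotted line at the median of all genes, 0.26. The growth hormone list lies lowest, at -1.03, and the acute phase and tumor-associated lists highest among the hepatocyte lists, at 0.80 and 1.32. The tumor-associated and acute phase medians include genes that passed the CPM filter only through N-LKO. The growth hormone median includes genes that passed it only through WT. The places of these medians are no support for a change of the lists.

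Lipid genes were called in both directions, within de novo lipogenesis too. Of 25 genes of de novo lipogenesis, 3 were called lower and 2 higher, with a median of -0.28. Srebf1, the transcription factor of fatty acid synthesis, stood at 134 CPM in WT against 46.1 CPM in N-LKO (-1.50, -2.36 to -0.80), Acly had -1.47 (-2.06 to -0.96) and Fasn -1.09 (-1.51 to -0.71). Scd2, a stearoyl-CoA desaturase, had 6 UMIs in WT and 31 in N-LKO (3.68, 2.49 to 5.33), and Lpin1, a phosphatidate phosphatase, had 2.06 (1.51 to 2.64). Insig1, the sterol-regulated retention protein of SREBP, was called lower at 283 and 51.5 CPM (-2.42, -3.21 to -1.79), and periportal cells held it at 228 and 83.1 CPM. Lpl, lipoprotein lipase, stood at 63.4 CPM in WT against 301 CPM in N-LKO (2.24, 1.79 to 2.72), and Cd36, a fatty acid carrier, had 0.22 (-0.13 to 0.56). Apoa4, an apolipoprotein, was called higher at 225 and 1359 CPM (2.59, 2.36 to 2.83) in all 22 alternatives, against 188 and 565 CPM in droplets under 500 UMIs. Periportal cells held Apoa4 at 465 and 827 CPM. Apob, the core protein of secreted lipoproteins, had 0.02 (-0.09 to 0.12), and Dgat2, a triacylglycerol synthase, -0.15 (-0.62 to 0.28). Of 24 genes of cholesterol synthesis and LDL uptake 1 was called higher and 2 lower. Of 23 genes of lipoprotein assembly, 20 of lipid droplets and 17 of fatty acid uptake, 3, 2 and 2 were called higher and none lower. Centred, these lists held 1, 2, 0 and 2 higher and 5, 3, 0 and 1 lower calls, in the same order. Over all genes measured in the members, 5.68% were called higher and 1.9% lower without centring. Of 36 genes of fatty acid oxidation and of 87 genes of the respiratory chain and the TCA cycle, 1 each was called, both higher, with medians of 0.04 and -0.02. The 13 mitochondrially encoded genes all had a ratio under 0, with a median of -0.26.

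The remaining lists of hepatocyte functions are given beside the 5.68% and 1.9% of all genes called higher and lower. Of 25 genes of glucose and insulin metabolism, 2 were called higher and 1 lower, the last being G6pc, which releases glucose (627 and 244 CPM, -1.35, -1.70 to -1.04). Alas1, the first enzyme of heme synthesis, was called higher (49.1 and 152 CPM, 1.63, 1.05 to 2.22) among 22 genes of iron and heme. Of 27 genes of the unfolded protein response 2 were called higher and none lower, with a median of 0.33, and of 38 NRF2 targets and antioxidant genes 4 were called higher and none lower, with a median of 0.34. Both medians lay near the 0.26 of all genes. Centred, 1 gene of the unfolded protein response was called higher and 2 lower, and 2 of the NRF2 and antioxidant list were called each way. Of 28 hepatocyte transcription factors, 4 were called higher, among them Zbtb16 (2.15, 1.50 to 2.84) and Cebpb (1.12, 0.74 to 1.50). Cebpb is an early response gene too, and of 21 genes of the response to cell isolation 6 were called higher, with a median of 0.61.

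Several acute phase genes, led by the metallothioneins, were called higher in the N-LKO members. Of 30 acute phase genes outside the rule 8 were called higher and 1 lower, beside 5.68% and 1.9% of all genes. Their median was 0.80. Mt2 and Saa3 passed the CPM filter only through N-LKO, where they are high. Neither these counts nor the median is therefore support for a change of the list. This list is limited by the rule, which removed cells with 4 or more UMIs of Saa1, Saa2, Lcn2 and Spp1, 46 in N-LKO and 7 in WT. Mt1, a zinc and copper buffer, had 34 UMIs in 31 WT members and 219 UMIs in 99 N-LKO members (4.08, 3.57 to 4.66). Mt2, its neighbour, had 2 and 42 UMIs, a log2 ratio of 5.49 (3.86 to 8.89). Orm2, orosomucoid, had 11 and 24 UMIs (2.50, 1.45 to 3.71), Saa3 had 1 and 12 (4.47, 2.24 to 10.41), and Hamp was called lower (-1.06, -1.27 to -0.86), a call lost in 10 of 22 alternatives, among them the members of few other-cell UMIs (-0.88). The droplets under 500 UMIs held Mt1 at 59.3 CPM in WT against 591 CPM in N-LKO beside 34.8 and 594 CPM in the members, and Mt2 at 185 CPM in N-LKO beside 114 CPM. After thinning, Mt2 was found in 8.47% of N-LKO members and 10.1% of N-LKO endothelial cells, and Mt1 in 39.2% and 29.2%. The Mt2 share therefore did not exceed that of another cell type, although endothelial cells can make metallothionein too. Periportal cells held Mt1 at 34.4 CPM in WT against 1219 CPM in N-LKO, and Mt2 at 2.48 and 291 CPM. After thinning, 51.1% of N-LKO periportal cells held Mt1 and 21.7% held Mt2. The rise of these genes was thus not particular to the members. The promoters of both genes are shown because they hold the core of the metal response element, TGCACNC or TGCGCNC, in capitals on either strand, with the 250 bases before the start taken as above.
Mt1: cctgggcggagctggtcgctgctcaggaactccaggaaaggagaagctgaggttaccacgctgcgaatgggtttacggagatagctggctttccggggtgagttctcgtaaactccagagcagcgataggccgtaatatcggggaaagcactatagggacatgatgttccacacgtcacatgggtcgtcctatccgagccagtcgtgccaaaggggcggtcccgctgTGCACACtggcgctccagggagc
Mt2: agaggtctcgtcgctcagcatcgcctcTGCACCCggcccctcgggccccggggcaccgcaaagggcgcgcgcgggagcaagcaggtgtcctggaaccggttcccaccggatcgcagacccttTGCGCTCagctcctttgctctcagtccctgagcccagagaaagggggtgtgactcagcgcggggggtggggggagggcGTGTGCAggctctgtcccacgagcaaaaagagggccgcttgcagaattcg
They are chr8:94178839-94179088 and chr8:94172368-94172617, both on the plus strand. Mt2 held 3 matches and Mt1 held 1. At least 1 match was found in 21.4% of all promoters and 3 or more in 1.26%.

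Of 35 listed genes linked to tumors and bile ducts, 22 were measured, and 13 of these were called higher and none lower, beside 5.68% and 1.9% of all genes. Some, such as Sybu, passed the CPM filter only through N-LKO, where they are high. Neither the share over the measured genes nor their median, in any setting, is therefore support for a change of the list. Centred, 9 were called higher and 1 lower. Their median was 1.32 and lay above 0 in 21 of 22 alternatives, with -0.36 under a mitochondrial limit of 10%, and 13 of 21 were called higher without the members of many other-cell UMIs. Sybu, a kinesin-linked protein, had 0 UMIs in WT and 10 in 9 N-LKO members, 8.84-fold higher against a floor of 3 UMIs in WT. This fold leaves out counting error in N-LKO and is no bound. Col4a3, a collagen chain, had 1 and 9 UMIs (4.07, 1.73 to 10.03). Krt18, a keratin of simple epithelia, was called higher at 66.5 and 149 CPM (1.17, 0.62 to 1.71), while its partner Krt8 had 0.36 (0.04 to 0.68). Fabp5 had 32 and 17 UMIs (0.51, -0.45 to 1.39), Afp, alpha-fetoprotein, had 5 and 4 UMIs, and Epcam had 2 and 0. The tumor and duct list was limited by the rule too, which removed 46 N-LKO and 7 WT cells through Saa1, Saa2, Lcn2 and Spp1. The study names high Spp1, beside Krt8, Krt18 and Epcam, for its hepatocyte cluster enriched for cancer, so such cells may be missing here. Cdkn1a, a cell cycle inhibitor, was called higher at 18.4 and 130 CPM (2.80, 2.01 to 3.69), and periportal cells held it at 16.4 and 144 CPM. Pclaf, a DNA replication factor, had 0 UMIs in WT and 12 in N-LKO, but 5 cells held them and 1 cell held 6. Birc5 and Top2a, both of mitosis, had 6 and 13 UMIs in 5 and 6 N-LKO members. Egfr (0.52, 0.23 to 0.80), Insr (0.71, 0.23 to 1.17), Fgfr2, Nrp1, Braf, Apc and Trp53 had ratios between -0.53 and 0.71 and none was called. Outside that list, the remaining genes among the 10 with the largest ratios were Ephb2, a receptor kinase (1 and 17 UMIs), Gpnmb, a glycoprotein of lipid-laden macrophages (2 and 20 UMIs), and Rhoc, a small GTPase (1 and 11 UMIs). Those among the 10 lowest not yet named were Mup16 (43 and 0 UMIs), Trhde, a peptidase (37 and 0), Grm8, a glutamate receptor (26 and 0), Zfp992 (23 and 0) and Spsb4 (65 and 2).

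**Figure D5:**
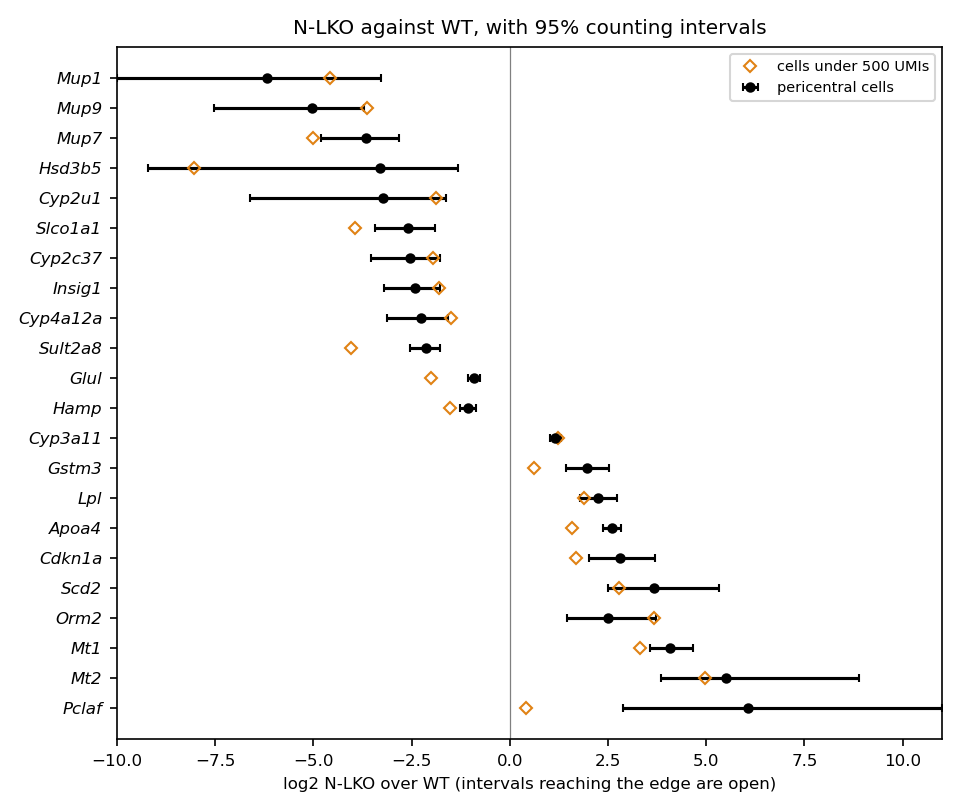
Log2 ratio of N-LKO over WT for 22 genes; black circles are pericentral members with exact 95% counting intervals, which are open where they reach the edge, and orange diamonds are droplets under 500 UMIs. Points of genes with 0 UMIs in a library (Mup1, Pclaf) depend on the 0.5 UMI added and are no bound. All diamonds lie on the same side of 0 as the members, that of Pclaf at 0.42 beside a lower limit of 2.88 in the members.

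RNA of other liver cells was present in the members of both libraries and differed between them. Macrophage and Kupffer cell genes summed to 614 CPM in WT against 982 CPM in N-LKO, with 3 of 14 called higher, beside 5.68% of all genes. The defining genes Clec4f and Cd5l were at 0 by the rule. Neutrophil and dendritic cell genes summed to 316 and 768 CPM, with 5 of 7 called higher, and 0 of 5 measured without members of many other-cell UMIs. Hemoglobin and other erythroid genes summed to 170 and 469 CPM, with Hbb-bs in 13 WT and 4 N-LKO members, and their median ratio went from 1.91 to -1.25 without such members. B and plasma cell genes summed to 146 and 385 CPM, mostly Igkc, which had 121 UMIs in 30 N-LKO members and was not called once cells with many other-cell UMIs were left out (0.66). Endothelial genes summed to 302 and 260 CPM, T and NK cell genes to 245 and 236, cholangiocyte genes to 83.9 and 92.2, and stellate cell genes to 63.4 and 29.8. The part of these cells in the differences above was not tested beyond the calls without such members.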

How the data were processed

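Cells of WT and N-LKO were profiled with a 10x Genomics 3′ assay, 1 library per group. The authors deposited a table of UMI counts per gene and barcode for each library, written by Cell Ranger 7.1.0 according to the file headers. The submitters' processing notes also name Seurat and the build mm9. The counts were used as deposited, without normalization by the authors. The libraries held 85522287 UMIs in WT and 87575064 in N-LKO, with a median of 657 and 774 UMIs per barcode. No annotation of cell types was used, and members were found by the rule given above. No doublet caller was run. The rule's members and the 42 gene lists were chosen with earlier results of these data known.

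UMIs were summed over members and divided by their total to give CPM, with exact Poisson intervals. Ratios had 0.5 UMI added, and their intervals came from the exact conditional binomial distribution. A zonal difference had an interval by the delta method. Of 911 list symbols, 908 were found in the files. The text names, by rule, the 10 genes with the highest and the 10 with the lowest ratio among those called at 20 CPM or more in a library, the 10 genes with the highest and the 10 with the lowest zonal ratio, the rule genes, genes the study discusses and up to 4 genes per direction in a list. Others (Mup20, Akr1d1, Cyp2c38, Ctnnb1, Arg1, Ostc, Alg11 and further genes named for their role) were named after their values were seen. A few genes that the rule selects are not reported here. Alternatives changed the limits of the rule, the marker set, depth, scaling and the CPM filter. Scripts were tested on simulated data. Python 3.11.15 with numpy 2.4.6, scipy 1.17.1, pandas 2.3.3 and matplotlib 3.10.9 was used.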

Additional observations from a re-analysis of the deposited data

Results flagged for a closer look

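For 5 of 5000 genes at 20 CPM or more in either zone of each library, the zonal ratio, pericentral over periportal on the log2 scale, lay on opposite sides of 0 in the 2 libraries with neither interval holding 0, and was called in 1 of them. A further gene outside those 5000, Ipo11, was the only 1 of 9419 called in opposite directions, on 4 and 43 UMIs in WT and 9 and 3 in N-LKO. The difference was not tested across samples, since each group is 1 library. N-LKO minus WT, the difference was 1.76 for Apoa4 (-1.04 in WT and 0.72 in N-LKO), 1.28 for Fasn (-0.21 and 1.07) and 3.58 for Ipo11, a nuclear import receptor (-1.55 and 2.03). It was -1.70 for Gstk1, a glutathione transferase (0.67 and -1.03), -3.17 for Parp4 (0.87 and -2.30) and -2.57 for Zfp24, a zinc finger factor (0.76 and -1.82). Of the 5000 genes, 20 had intervals on opposite sides of 0.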

How the results depend on the processing

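The settings changed 1 choice at a time, and one of them, which keeps members under 6 other-cell UMIs, was chosen after seeing the data. The share difference of -4.47 points turned to 9.7 with a minimum of 2000 UMIs, 1.75 with a mitochondrial limit of 10% and 1.32 under 6 other-cell UMIs. It moved to -0.0879 with a Malat1 limit of 0.5%, -5.9 without the other-cell gene limit, -2.59 with 6 marker UMIs, -1.24 with a marker ratio of 4, -1.92 without Cyp2e1, -2.18 without Oat and -5.83 thinned. The 617 genes called higher became 275 (2000 UMIs), 184 (mitochondrial 10%), 394 (Malat1 0.5%), 1626 (no Malat1 limit), 372 (thinned) and 315 (centred), and the 206 lower became 95 (mitochondrial 10%), 313 (no Malat1 limit) and 445 (centred). The 91 genes pericentral in both libraries became 24 (mitochondrial 10%) and 51 (thinned), and the 15 periportal in both became 6 (mitochondrial 10%), 27 (no Malat1 limit), 28 (6 marker UMIs), 31 (ratio 4), 32 (without Cyp2e1) and 9 (thinned). With 2000 UMIs, Hba-a1 turned to -1.66, Hba-a2 -2.40, Hbb-bs -3.53 and Igkc -0.07. With a mitochondrial limit of 10%, which left 29 and 12 members, Abcc4 turned to -0.26, Acly 0.43, Cyp7a1 0.47, Cyp7b1 0.47, Fabp4 -0.91, Fcer1g -0.08, G6pc 1.30, Hlf 0.22, Insig1 2.54, Krt18 -0.91, Mgst3 -0.62, Plin5 -0.62, Slc1a2 0.43 and Top2a -0.62. Slc1a2 turned to 0.12 without the Malat1 limit, and Retnlg to -0.41 and S100a9 to -0.01 without the other-cell gene limit. With 6 marker UMIs, Arntl turned to -0.01, Hba-a2 -2.23 and Hbb-bs -3.06, and without Cyp2e1, Hba-a2 -1.42, Hbb-bs -2.86, Plin5 -0.20 and Ube2c -0.94. Thinned, Fzd4 turned to 0.08 and Pmvk to -0.47, and Hbb-bs turned to -2.39 under 6 other-cell UMIs. The cause was not tested. Of the other values of single genes, lists and shares, 4537 were labelled unchanged, 480 no longer passed the call, 67 newly passed it and 170 moved. Unchanged values include genes called in neither setting, and the ratio of such a gene could change sign. Cd36, for example, went from 0.22 to -0.12 with a minimum of 2000 UMIs. Subtracting free RNA gave no value, since its estimate reached 101% in WT and 81.8% in N-LKO. No paired analysis was possible because each group is 1 library. With 189 N-LKO members, a gene at 8.14 CPM rests on 3 UMIs.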
